A study of Mus musculus with 11 samples.

Results

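The 9 genes described here encode molecules of the vessel wall, or of cells that touch it, to which leukocytes and circulating tumour cells can bind: *Sele*, *Selp*, *Icam1*, *Icam2*, *Vcam1*, *Madcam1*, *Podxl*, *Cd44* and *Alcam*. They are defined by name, with no threshold on their values, and were found in the gene count table by Entrez gene ID. All 9 had a row among the 27179 rows of the table, 8 had a read in at least 1 library, and the same 8 passed the filter on low counts and were tested among 11949 genes. The libraries were made from endothelial cells with high CD31 and high endomucin, the surface signature by which type H capillaries are recognised in healthy bone, which were sorted from bone marrow of BALB/c mice with CD45 and Ter-119 positive cells gated out. The tumour-burdened mice carried 4T1.2, a mammary carcinoma line of the BALB/c strain, tagged with a red fluorescent protein. Bones of these mice were dissected under fluorescence into areas holding tumour cells (met, 3 libraries) and adjacent areas without them (non-met, 6 libraries), and age-matched healthy mice gave the control group (2 libraries). The labels give each library a mouse pool, which can be 1 animal or several. Met 1 shares burdened pool 2 with non-met 2 and 6, met 2 shares pool 3 with non-met 3, met 3 shares pool 4 with non-met 4, and pool 1 is the source of non-met 1 and 5. Libraries of one pool share animals, and the tests below treat them as separate. All 3 comparisons draw on the same libraries, so met and non-met against control share both controls.

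Leukocytes leave the blood in steps. Selectins on the endothelium catch sialylated, fucosylated sugars on passing cells and slow them to a roll, and adhesion molecules of the immunoglobulin superfamily, such as ICAM-1, ICAM-2, VCAM-1 and MAdCAM-1, then bind leukocyte integrins and hold the cell firmly. In bone marrow, E-selectin and VCAM-1 on the vessel wall are known for the homing and retention of haematopoietic cells, and disseminated tumour cells can use the same molecules. Podocalyxin, CD44 and ALCAM are surface proteins found on endothelium and on many tumour cells alike.

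Total counts ran from 733342 (non-met 4) to 19539761 (control 1), so the value of 1 read differed widely between libraries: 3 reads, taken as the limit of detection, corresponded to 0.147 CPM (counts scaled to the size of the library) in control 1 and to 5.43 CPM in non-met 4. The reads carry no molecular identifiers, and this limit covers counting error only. The sort markers were high throughout, with *Pecam1* (CD31) at 972 to 3160 CPM and *Emcn* (endomucin) at 351 to 1360 CPM. They were not level between groups in voomLmFit, which called *Pecam1* higher in met than in non-met (0.89 on the log2 scale, adjusted p = 0.000455) and than in control (1.342, adjusted p = 8.9e-27), and *Emcn* higher in met than in control (0.91, adjusted p = 1.68e-05). The edgeR quasi-likelihood test, DESeq2 and limma-trend made none of these 3 calls, and in the voomLmFit fit of *Pecam1* control 1 and met 3 carried 99.9% and 99.8% of the weight of their groups. Markers of other cells were not absent. The summed level of 9 granulocyte markers was 77.8 and 359 CPM in the controls, 397 to 5100 CPM in non-met and 35.4 to 203 CPM in met, and that of 7 stromal and osteolineage markers was 3970 and 11000 CPM in the controls, 1050 to 3380 CPM in non-met and 475 to 2490 CPM in met, with *Bglap* at 0 reads in every library. The 7 markers of mammary epithelium summed to at most 96.8 CPM. Of these, *Krt8* plus *Krt18* stayed under 5 CPM in both controls, non-met 1 and non-met 2 (set 1) and exceeded it in the other 7 libraries (set 2), so that no control lies in set 2 and no met library in set 1. In bulk libraries such as these, fewer cells of a type and less RNA per cell cannot be told apart.

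Per length of transcript, 6 of the genes stood at similar levels and 3 far below them. The median over all 11 libraries, in RPKM (CPM per kilobase of counted length), was 144 for *Podxl*, 114 for *Icam2*, 92.4 for *Selp*, 78.4 for *Icam1*, 74.1 for *Sele* and 49.4 for *Vcam1*. Neighbours in this order were not separated library by library: *Podxl* exceeded *Icam2* in 5 of 11 libraries, and each of the next pairs kept its order in 7 of 11. A wide step followed, since *Vcam1* exceeded *Cd44* (median 1.62 RPKM) in 10 of 11 libraries. *Alcam* had a median of 0, and *Madcam1* had 0 reads in all 11 libraries.

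**Figure D1:**
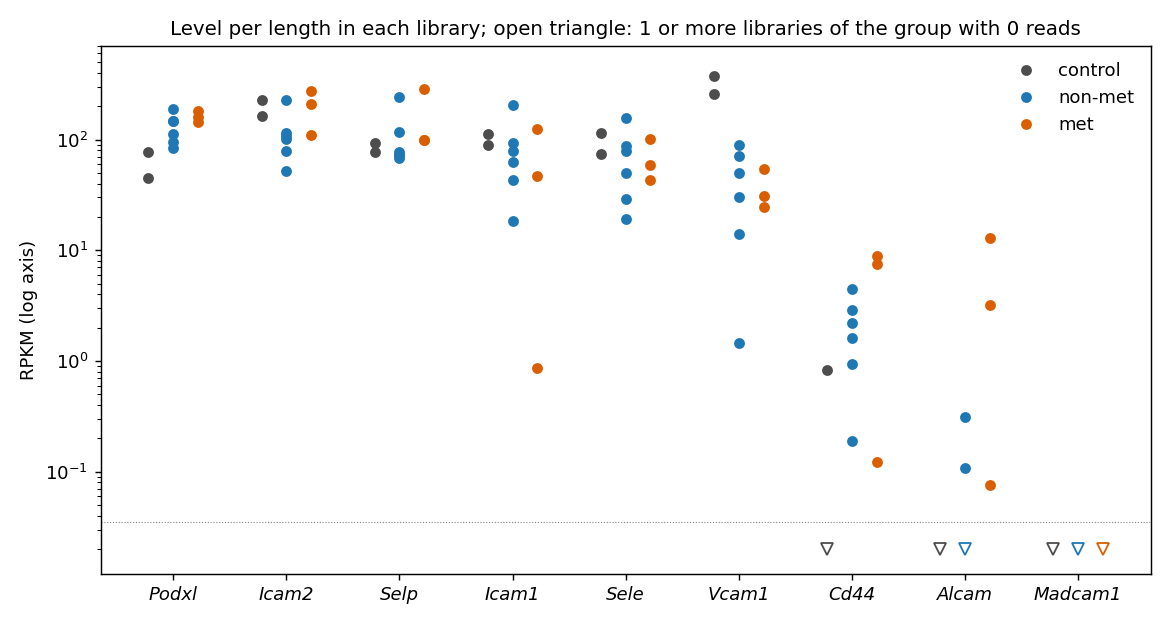
Level per length of the 9 genes in each library, in RPKM on a log axis, ordered by the median over all libraries. Points are libraries coloured by group, and open triangles below the dotted line mark groups with 1 or more libraries at 0 reads. For *Vcam1* the controls (257 and 373 RPKM) stand above all other libraries, and *Madcam1* has triangles only.

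The comparisons were made with voomLmFit, the linear model the study's methods name, and Benjamini-Hochberg adjustment over all 11949 genes at a threshold of 0.05. Between met and non-met, none of the 8 tested genes passed, where 0.418% of all tested genes did. The unadjusted p was under 0.05 for 1 of the 8 (*Selp*) and for 7.24% of all genes, and the edgeR quasi-likelihood test, DESeq2 and limma-trend also called 0 of the 8. Between met and control, 1 of 8 passed (*Podxl*), against 1.20% of all genes. There the unadjusted p was under 0.05 for 5 of the 8 (*Selp*, *Vcam1*, *Podxl*, *Cd44* and *Alcam*) and for 14.1% of all genes, but *Alcam* had passed the filter on low counts through the met libraries alone, and no support is drawn from the count. Between non-met and control 0 of 8 passed, against 0.636%, and the unadjusted p was under 0.05 for 3 of the 8 (*Vcam1*, *Podxl* and *Cd44*) and for 17.0% of all genes. In that last comparison the quasi-likelihood test called 1 gene (*Vcam1*), and DESeq2 and limma-trend called 0. The median log2 fold change of the 8 was 0.54 for met minus non-met, 0.43 for met minus control and -0.18 for non-met minus control, beside 0.07, -0.10 and -0.33 over all tested genes. These medians include *Alcam*, and no support is drawn from them. Without *Alcam*, the middle value for met minus control is that of *Icam2*, -0.23. Libraries of the 2 groups did not overlap for 0, 4 (*Selp*, *Vcam1*, *Podxl* and *Alcam*) and 2 (*Vcam1* and *Podxl*) of the 8 genes in these comparisons, where 1.98%, 20.7% and 6.29% of all tested genes did not overlap. The separation of *Alcam* rests on 2 reads in met 2, under the limit of 3.

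**Figure D2:**
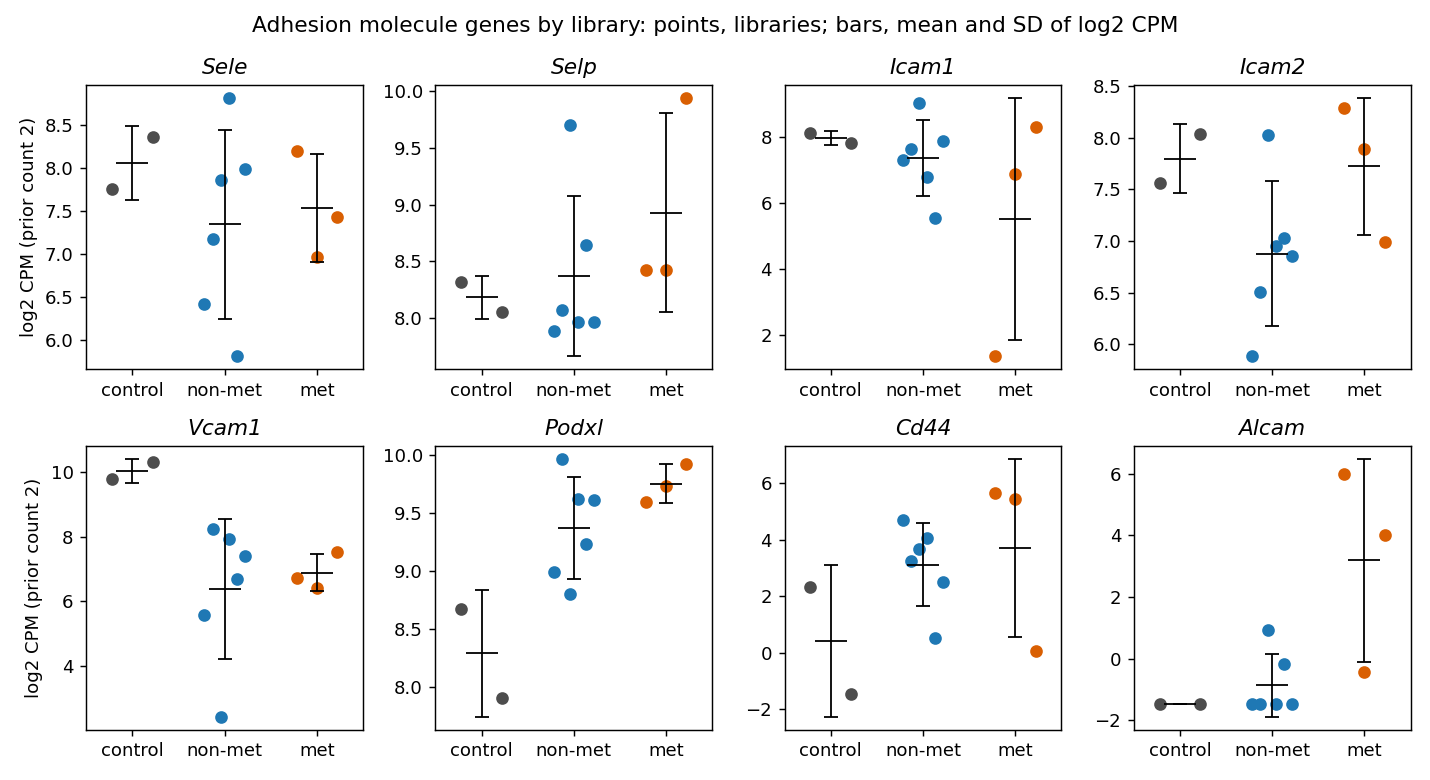
Log2 CPM (prior count 2) of the 8 genes with reads, by group. Points are libraries and bars give the group mean and SD (control n = 2, non-met n = 6, met n = 3). Both controls lie above all other libraries for *Vcam1* and below them for *Podxl*, and the groups intermix for *Sele*, *Icam1* and *Icam2*.

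The selectin genes lie next to each other on the plus strand of chromosome 1 (GRCm38.p6, *Sele* at chr1:164039614-164058487 and *Selp* at chr1:164115264-164150026). In many tissues E-selectin is made on demand by activated endothelium. P-selectin is stored in granules of endothelial cells and platelets and moved to the surface within minutes. The 250 bases before the start of each gene, from RefSeq, are shown because the pair sits side by side and yet differed from library to library. Capitals mark the pattern TGANTCA in both and TATAAA in *Sele*. TGANTCA is a loose form of the AP-1 binding motif, whose middle base is C or G. The *Sele* match (TGACTCA) has such a base and the *Selp* match (TGATTCA) does not. The pattern reads the same on either strand and is held by 6.75% of the 32851 windows of this length in the RefSeq table. TATAAA is held by 12.4% on either strand. The TGANTCA match begins 73 bases before the start in *Sele* and 139 bases before it in *Selp*. The *Sele* start used lies inside the gene's annotated extent.
Sele: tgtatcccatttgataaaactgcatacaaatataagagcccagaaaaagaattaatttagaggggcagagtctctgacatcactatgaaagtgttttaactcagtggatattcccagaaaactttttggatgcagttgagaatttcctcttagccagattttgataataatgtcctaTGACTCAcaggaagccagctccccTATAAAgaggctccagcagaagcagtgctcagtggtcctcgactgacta
Selp: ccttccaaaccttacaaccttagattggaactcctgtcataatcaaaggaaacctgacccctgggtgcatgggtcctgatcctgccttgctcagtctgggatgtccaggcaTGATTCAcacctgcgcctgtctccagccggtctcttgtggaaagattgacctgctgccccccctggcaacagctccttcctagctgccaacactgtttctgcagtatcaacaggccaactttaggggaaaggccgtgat
The windows are chr1:164047984-164048233 for *Sele* and chr1:164115014-164115263 for *Selp*. An NF-kB consensus pattern, searched for without mismatches, was held by 7.25% of all windows and was not found in these 2. Sites that depart from this pattern were not searched for. Of the 9 genes, 6 had an entry in the table, and *Icam2*, *Vcam1* and *Podxl* had none.

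*Sele* was expressed in every library with no order of the groups. It was 216 and 330 CPM in the controls, ran from 55.7 through a median of 188 to 452 CPM in non-met, and was 295, 124 and 173 CPM in met 1, 2 and 3. The controls fell inside the range of the non-met libraries, of which non-met 4 was highest and non-met 5 lowest. The fitted log2 fold change was 0.18 (SE 0.60) for met minus non-met, -0.54 (SE 0.48) for met minus control and -0.72 (SE 0.44) for non-met minus control, with adjusted p of 0.973, 0.673 and 0.376 in voomLmFit.

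*Selp* was even across most libraries and high in 2. The controls held 318 and 264 CPM, the non-met libraries 236 to 832 CPM with a median of 259, and met 1, 2 and 3 held 342, 342 and 983 CPM. Non-met 3 and met 3 were the high libraries, from different mouse pools. All 3 met libraries exceeded both controls, and for met minus control the fitted log2 difference was 1.10 (SE 0.36), with an adjusted p of 0.12 in voomLmFit. Without met 3 this value was 0.16 (adjusted p = 0.924), and it was 0.13 once the 2 library sets were modelled (adjusted p = 0.988). It passed without control 2 (1.08, adjusted p = 0.0435) and without sample weights (1.18, adjusted p = 0.0156). The 6 megakaryocyte and platelet markers summed to 0 and 31.3 CPM in the controls, 0 to 57.7 CPM in non-met and 100, 42.4 and 53.0 CPM in met 1, 2 and 3, with *Gp9* and *Gp6* at 0 reads in every library, and their part in *Selp* was not tested. For met minus non-met it was 1.02 (SE 0.44, adjusted p = 0.624), but 0.10 without met 3, and for non-met minus control 0.08 (SE 0.44, adjusted p = 0.919). An antisense gene overlaps the exons of *Selp* in the annotation and strand use in counting is not stated; another overlapping gene with a row of its own, *Gm16548*, had 42 reads in all libraries together. Per length, *Sele* was 0.801 and 1.48 times *Selp* in the controls, 0.165 to 2.14 times in non-met and 0.207 to 1.02 times in met, so that neither selectin was the more abundant throughout.

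ICAM-1 binds the leukocyte integrins LFA-1 and Mac-1 and is raised by inflammatory cytokines, while ICAM-2 binds LFA-1 and is a standing component of resting endothelium. *Icam1* (chr9:21015940-21028814) was 282 and 229 CPM in the controls, 46.7 to 522 CPM with a median of 179 in non-met, and 2.2, 119 and 318 CPM in met. Met 1 stood apart with only 5 reads, against 199 and 236 CPM in the 2 non-met libraries of its own mouse pool. The SD of log2 CPM was 3.68 in met (n = 3) against 1.16 in non-met (n = 6), and the fitted difference of met minus non-met, -0.93 (SE 1.20, adjusted p = 0.897 in voomLmFit), turned to 0.13 without met 1. Met minus control was -1.37 (SE 1.13, adjusted p = 0.644), and -0.30, -3.86 and -4.58 without met 1, 2 and 3 in turn. Non-met minus control was -0.44 (SE 0.55, adjusted p = 0.638). An antisense gene overlaps an exon of *Icam1* as well.

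*Icam2* (chr11:106377656-106388139, minus strand) was 188 and 262 CPM in the controls, 58.8 to 260 CPM with a median of 119 in non-met, and 311, 237 and 127 CPM in met. Non-met 3 reached 260 CPM, and the other 5 non-met libraries lay between 58.8 and 130 CPM, below both controls. The fitted log2 fold change was 0.70 (SE 0.64) for met minus non-met, -0.23 (SE 0.44) for met minus control and -0.93 (SE 0.56) for non-met minus control, and the adjusted p was 0.824, 0.863 and 0.375 in voomLmFit. *Icam1* per *Icam2*, both per length, was 0.674 and 0.393 in the controls and ranged from 0.161 to 1.21 in non-met. In met it was 0.00318, 0.225 and 1.13, the lowest value being that of met 1, in which *Icam2* was at its highest.

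*Vcam1* (chr3:116110020-116129688, minus strand), whose product binds the integrin VLA-4 on leukocytes and haematopoietic cells, set the tumour-burdened libraries apart from the healthy ones. The controls held 874 and 1267 CPM. Non-met libraries held 4.98 to 302 CPM with a median of 135, and met 1, 2 and 3 held 105, 83.8 and 184 CPM. All 9 burdened libraries were thus below both controls, non-met 3 with 16 reads by the widest margin. The fit put non-met at -3.48 (SE 1.01) and met at -2.78 (SE 1.00) on the log2 scale relative to control, which is 11.2-fold and 6.86-fold lower. Neither passed in voomLmFit (adjusted p = 0.0903 and 0.166), and the exact two-sided permutation test of mean log2 CPM gave p = 0.0714 and 0.1, where 0.1 is the smallest p that 3 against 2 libraries allow. The quasi-likelihood test called the difference of non-met (adjusted p = 0.0337) and DESeq2 did not (adjusted p = 0.0626). Both differences passed when either control was left out, with adjusted p of 0.00122 and 0.0106 for non-met and 0.0167 and 0.0387 for met without control 1 and control 2. In the voomLmFit fit, control 2 carried 0.00551% of the weight of the control group for this gene, so the fitted difference was in effect taken from control 1. With a term for the 2 library sets, the difference from control was -2.87 in non-met and -1.27 in met (adjusted p = 0.293 and 0.911). Within set 1, non-met 1 and 2 against both controls, it was -3.04 (adjusted p = 5.96e-05). Met and non-met did not differ beyond their spread (0.70, SE 1.42, adjusted p = 0.945), and that value was -0.16 without non-met 3.

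Of the 7 stromal markers, *Lepr*, *Cxcl12* and *Adipoq* were lower in every burdened library than in both controls, as *Vcam1* was. *Lepr*, the leptin receptor of marrow stromal cells, was 246 and 979 CPM in the controls, 0.622 to 221 CPM in non-met and 52.5 to 148 CPM in met. *Cxcl12*, a chemokine made at high levels by the same cells and also by endothelium, was 3220 and 8720 CPM in the controls, 555 to 2600 CPM in non-met and 225 to 1800 CPM in met. *Adipoq* was 135 and 453 CPM in the controls and at most 67.5 CPM elsewhere. Control and burdened libraries overlapped for *Pdgfrb* (155 and 285 CPM in the controls, up to 318 CPM in non-met), *Col1a1* (57.8 and 69.7 CPM in the controls, up to 152 CPM in non-met) and *Kitl* (151 and 521 CPM in the controls, up to 366 CPM in met). Non-met 3 was the lowest library for both *Vcam1* and *Lepr*, and *Lepr* was also the tested gene most like *Vcam1* (Pearson r = 0.907 over 11 libraries). As a percentage of *Lepr*, *Vcam1* was 356 and 129 in the controls, 46.5 to 443 in 5 of the non-met libraries and 71.1 to 213 in met, and the groups overlapped. Non-met 3 had 2 reads of *Lepr*, under the limit, and gives no such ratio. As a percentage of 7 summed endothelial markers it was 12.3 and 27.6 in the controls and 0.0496 to 4.49 in the burdened libraries, and they did not. The 9 monocyte and macrophage markers summed to 1560 and 999 CPM in the controls, 460 to 1400 CPM in non-met and 354 to 877 CPM in met, with *Fcgr1* and *C1qa* at 0 reads in every library. The part of stromal cells and macrophages in the *Vcam1* values was not tested. An antisense gene overlaps an exon of *Vcam1* in the annotation.

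**Figure D3:**
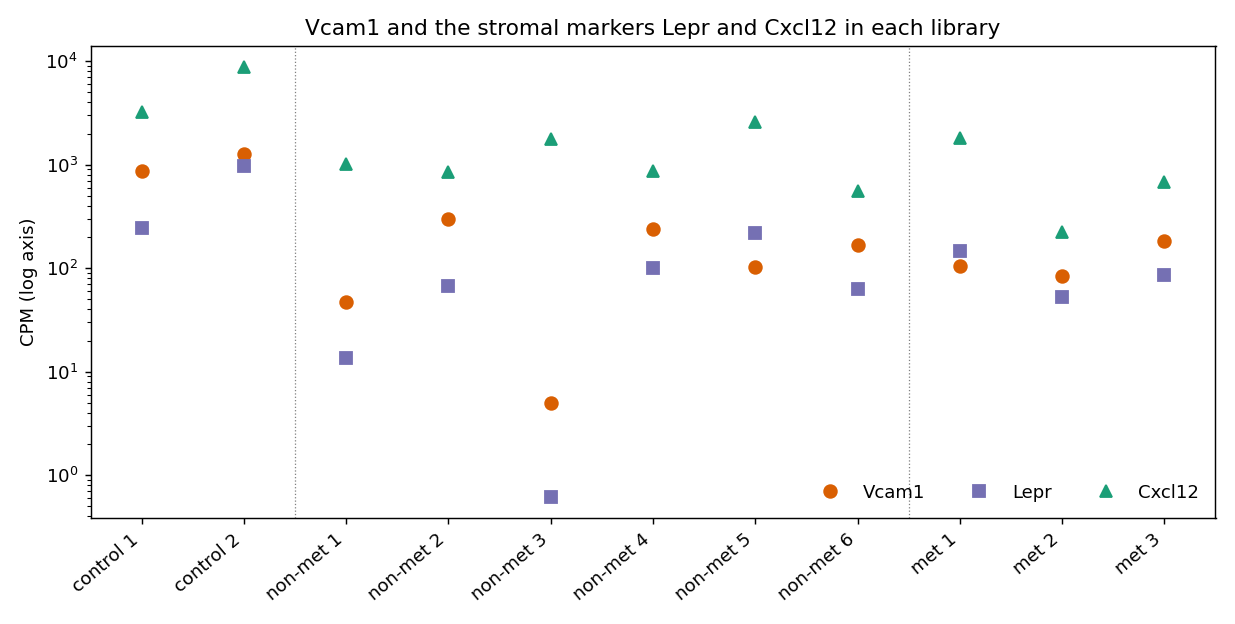
CPM on a log axis of *Vcam1* and of the stromal markers *Lepr* and *Cxcl12* in each of the 11 libraries, with dotted lines between the groups. All 3 genes are highest in the 2 controls, and non-met 3 is lowest for *Vcam1* (4.98 CPM) and *Lepr* (0.622 CPM) but not for *Cxcl12*.

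*Madcam1* (chr10:79664559-79668542), the ligand of the integrin alpha4-beta7 on venules of gut and its lymphoid tissue, had 0 reads in every library, which allows a level of up to 0.147 CPM in control 1, 0.344 CPM in met 3 and 5.43 CPM in non-met 4, the shallowest library. It was not tested.

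*Podxl* (chr6:31519493-31563937, minus strand) encodes podocalyxin, a sialomucin of the luminal endothelial surface, and was the gene that rose. It was 408 and 238 CPM in the controls, 444 to 1000 CPM with a median of 691 in non-met, and 770, 851 and 971 CPM in met. All 9 burdened libraries were above both controls, and the met libraries lay close together (SD 0.17 of log2 CPM, n = 3). Met exceeded control by 1.37 on the log2 scale (SE 0.27, 2.59-fold, adjusted p = 0.00576 in voomLmFit). Non-met minus control was 0.98 (SE 0.30, adjusted p = 0.104) and met minus non-met 0.39 (SE 0.21, adjusted p = 0.734). The exact permutation p was 0.1 for met and 0.0357 for non-met against control, in each case the smallest the design allows. The quasi-likelihood test, DESeq2 and limma-trend did not call met against control (adjusted p = 0.886, 0.17 and 0.513). The voomLmFit call was lost without control 1 (2.02, adjusted p = 0.176) and without met 3 (1.18, adjusted p = 0.157), the libraries that carried 76.4% and 71.2% of the weight of their groups, and non-met passed without control 2 (0.80, adjusted p = 0.0272). With a term for the 2 library sets, met minus control was 1.79 (adjusted p = 0.267). Endothelial markers moved in the same direction: the 7 summed to 4580 and 7120 CPM in the controls, 5660 to 10000 CPM in non-met and 8550 to 9930 CPM in met. As a percentage of that sum, *Podxl* was 5.73 and 5.21 in the controls. It was 8.94 to 9.78 in the met libraries and 4.43 to 14.9 in non-met, where non-met 3 alone fell below the controls.

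CD44, the receptor for hyaluronan and a ligand of E-selectin on leukocytes and tumour cells, and ALCAM, the ligand of CD6, were scarce and patchy. *Cd44* (chr2:102811141-102901669, minus strand) had 95 reads (4.64 CPM) in control 1 and 0 in control 2, where 3 reads correspond to 0.531 CPM. It ran from 1.06 through a median of 10.8 to 25.4 CPM in non-met and was 49.8, 42.8 and 0.688 CPM in met. The 2 highest libraries were therefore met 1 and met 2, and met 3 was below the 5 non-met libraries with more than 3 reads. The fitted log2 fold change of met minus non-met was 0.05 (SE 1.95, adjusted p = 0.997 in voomLmFit). It was 1.42 with the quasi-likelihood test and 1.31 with DESeq2, and neither called it. Relative to control the fit gave 5.76 for met (SE 2.55, adjusted p = 0.294) and 5.70 for non-met (SE 2.32, adjusted p = 0.218). These sizes rest on control 2, the library with 0 reads, since without it they were 1.13 and 0.93 (adjusted p = 0.849 and 0.84). *Cd44* is also carried by most leukocytes and by carcinoma cells; the epithelial list summed to 22.5, 74.5 and 11.2 CPM in met 1, 2 and 3 and to 1.62 to 96.8 CPM in non-met, and the part of other cells in *Cd44* was not tested.

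*Alcam* (chr16:52248996-52453081, minus strand) had 144, 2 and 138 reads in met 1, 2 and 3 (63.4, 0.379 and 15.8 CPM). The 6 non-met libraries held 6 reads together, 5 of them in non-met 3, and the controls held 0. Pooled over libraries, met was 17.5 CPM, at least 152-fold higher than the controls, whose limit of 3 reads over both libraries is 0.115 CPM. This value rests on met 1 and met 3, since met 2 was below its own limit of 3 reads. It also rests on the depth of control 1, since 3 reads in control 2 alone correspond to 0.531 CPM. The fitted difference of met minus non-met was 3.54 (SE 2.11, adjusted p = 0.751 in voomLmFit), and the exact permutation p was 0.0357, unadjusted and 1 of 24 such tests. *Alcam* passed the filter on low counts through the met libraries alone, so that these values support no difference, and it was not tested once met 1 or met 3 was left out. Without met 2 the fitted value was 5.67. *Alcam* is found on stromal and carcinoma cells as well as endothelium, and their part was not tested.

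**Figure D4:**
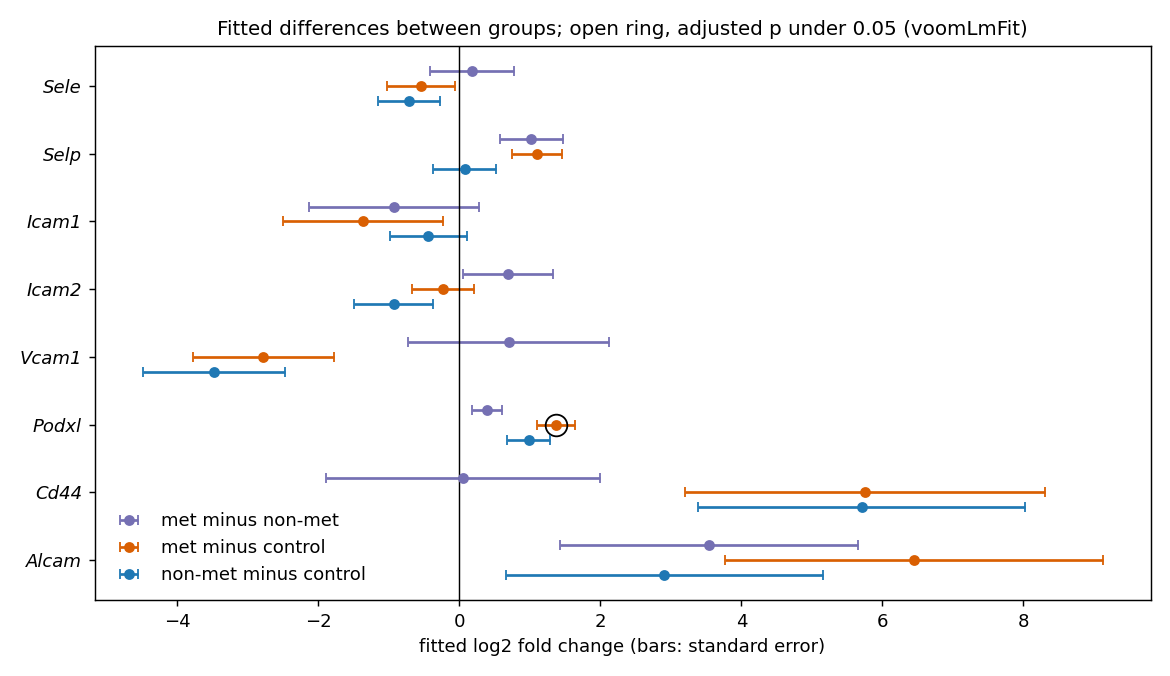
Fitted log2 fold changes (voomLmFit) of the 8 tested genes in the 3 comparisons, with bars of 1 standard error and a ring where the adjusted p is under 0.05. Only *Podxl* in met minus control (1.37) carries a ring; *Vcam1* is the gene farthest below 0, and the bars of *Cd44* and *Alcam* are the widest.

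Within the 3 burdened pools that gave both kinds of library, met and non-met cells of the same animals can be set side by side. None of the 7 genes other than *Alcam* differed in one direction in all 3 pools. *Podxl* was higher in met in pools 3 and 4 (by 0.94 and 0.30 on the log2 scale) and lower in pool 2 (-0.20). *Vcam1* was lower in met in pools 2 and 4 (-1.09 and -0.39) and higher in pool 3 (3.98), where the non-met library was the one with 16 reads. *Sele* was lower in met in pools 3 and 4 (-0.90 and -1.39) and higher in pool 2 (0.62), and *Selp* ranged from -1.28 in pool 3 to 1.98 in pool 4. *Icam1* ranged from -6.41 in pool 2 to 1.52 in pool 4, *Icam2* from -0.14 in pool 3 to 1.60 in pool 2, and *Cd44* from -3.99 in pool 4 to 2.77 in pool 2. *Alcam* had 144 reads in met against 0 in both non-met libraries of pool 2, 138 against 0 in pool 4, and 2 against 5 in pool 3, where the met library was under the limit. Libraries of one pool and one area also differed. Non-met 1 and 5 were 0.60 apart for *Sele*, 0.75 for *Selp*, 1.75 for *Icam1*, 1.15 for *Icam2*, 1.11 for *Vcam1* and 0.25 for *Podxl*. Non-met 2 and 6 were 0.81, 0.10, 0.25, 0.35, 0.84 and 0.36 apart for the same genes. For *Cd44* the distances were 4.18, where non-met 5 held 2 reads and was under the limit, and 0.74. *Alcam* had at most 1 read in any of these 4 libraries.

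**Figure D5:**
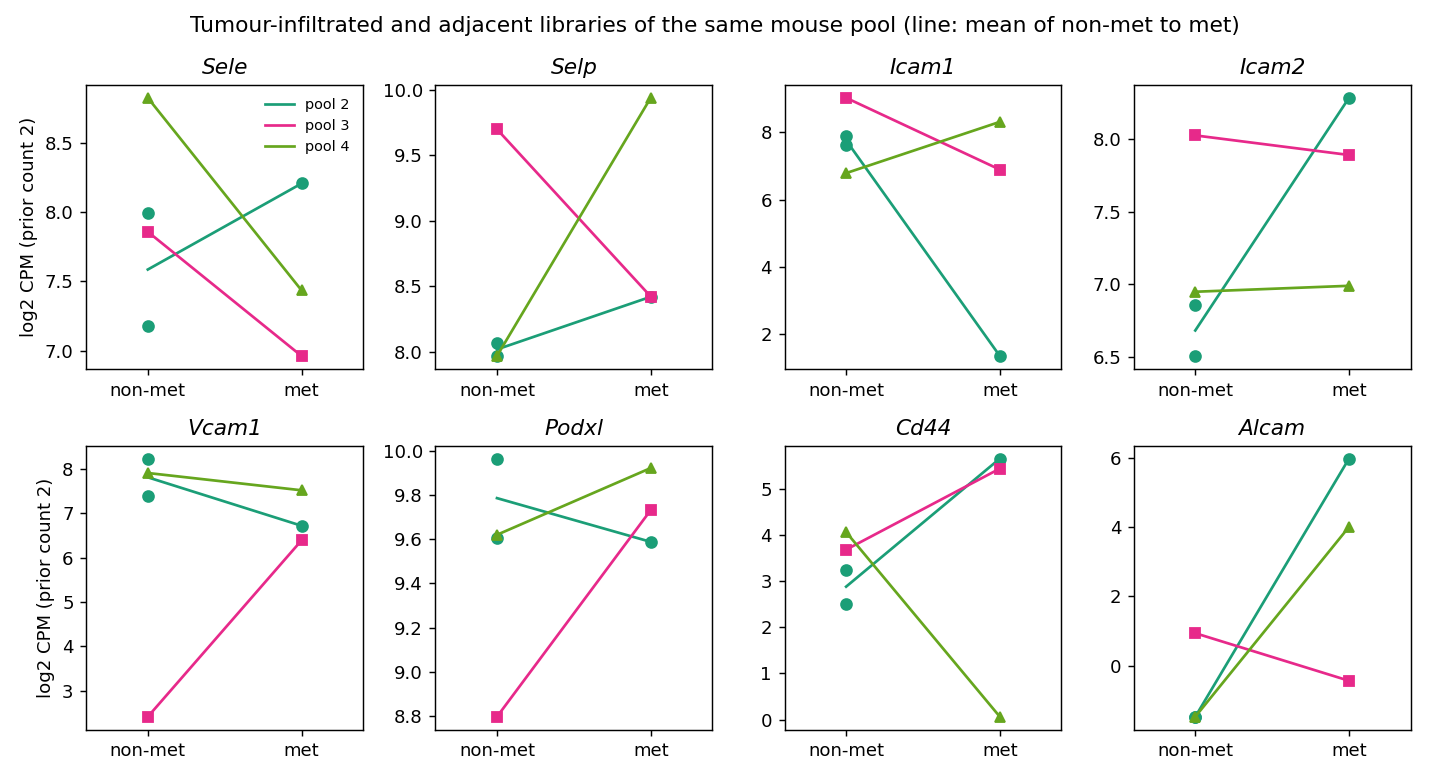
Log2 CPM (prior count 2) of non-met and met libraries of burdened pools 2, 3 and 4, 1 panel per gene, with a line from the non-met mean to the met library of each pool. In each panel at least 1 line runs against the others, although that of *Alcam* in pool 3 rests on 2 and 5 reads.

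The partners of these molecules on leukocytes were measured in the same libraries. *Selplg*, which encodes the P-selectin ligand PSGL-1, had 0 reads throughout, and *Itgal* (the LFA-1 alpha chain) and *Itgb7* had at most 1 and 3 reads in any library. *Itgb2*, the beta chain of LFA-1 and Mac-1, was 0 to 67.6 CPM in the controls, 0 to 73.1 CPM in non-met and at most 1.76 CPM in met. *Itga4*, the VLA-4 alpha chain, was 0 to 27.2, 0 to 91.2 and 0 to 8.6 CPM in control, non-met and met, and *Cd6* was 0 in the controls and reached 54.3 CPM in non-met and 8.15 CPM in met. Of these, *Itgb2*, *Itga4* and *Cd6* were tested and none passed in voomLmFit. DESeq2 called *Cd6* higher in met and in non-met than in control (adjusted p = 0.00166 and 6.48e-06). The quasi-likelihood test and limma-trend made neither call, and the median of *Cd6* was 0 CPM in met and in non-met. With 0 reads in the controls, *Cd6* passed the filter on low counts through burdened libraries alone, so that these calls support no difference. *Ezr*, which links podocalyxin and CD44 to actin, ran from 0.229 to 291 CPM over all libraries, and *Has2*, a hyaluronan synthase, reached at most 4.98 CPM.

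Of 94 further genes in 5 lists (other endothelial adhesion molecules, leukocyte ligands, cytoskeletal and matrix linkers, enzymes of selectin ligands, and endothelial activation), 79 were tested. Between met and non-met, 3 were called higher and 0 lower, where 0.418% of all tested genes were called, and the median log2 fold change was 0.14. These were *Cd34*, a sialomucin related to podocalyxin (1.31, SE 0.20, adjusted p = 0.000732 in voomLmFit), *Mcam* (1.10, SE 0.25, adjusted p = 0.0435) and *Cdh5*, the VE-cadherin of endothelial junctions (0.56, SE 0.11, adjusted p = 0.0159). None of the 3 was called there by limma-trend or the edgeR quasi-likelihood test, and DESeq2 called *Cd34* (adjusted p = 0.0126) but not *Mcam* or *Cdh5* (0.456 and 0.962). Between met and control, 7 were called higher and 2 lower (median 0.43, against 1.20% called of all genes), and between non-met and control 1 and 1 (median 0.17, against 0.636%). *Mcam*, or CD146, was 134 and 303 CPM in the controls and 1010 to 1590 CPM in met. It rose by 2.65 (SE 0.54), and was called by voomLmFit, the quasi-likelihood test, DESeq2 and limma-trend (adjusted p = 0.0095, 0.0358, 6.23e-05 and 0.0142). *Cd34* held 186 and 383 CPM in the controls, 442 to 679 CPM in non-met and 1240 to 1570 CPM in met, and rose in met against control by 2.29 (SE 0.28, adjusted p = 1.21e-05), with no call in the quasi-likelihood test (adjusted p = 0.103). *Cd93* and *Msn* (moesin) also rose in met against control (0.80 and 0.63, adjusted p = 0.0117 and 2.74e-07), as did *Cdh5* by 0.12 (adjusted p = 0.00426), and *Stab2*, a scavenger and adhesion receptor of sinusoids, fell by 0.94 in met and by 0.58 in non-met (adjusted p = 0.00058 and 0.0136). *Stab1* was called lower in met (-0.39, adjusted p = 0.000209), although its met and control libraries overlapped. *Itgb1*, the beta chain of VLA-4 and of many matrix receptors, rose in met (1.10, SE 0.04, adjusted p = 4.44e-15) and non-met (0.68, SE 0.11, adjusted p = 0.00167). For this abundant gene control 1 and met 3 carried 98.5% and 94.6% of the weight of their groups, and for *Cdh5* control 2 carried 0.0164%. The quasi-likelihood test, DESeq2 and limma-trend called neither difference of *Itgb1*, nor *Cdh5*, *Cd93*, *Msn* or *Stab1* in met against control, nor *Stab2* in non-met against control. For *Stab2* in met against control, DESeq2 made the call (adjusted p = 0.00619), which limma-trend (0.0778) and the quasi-likelihood test (0.298) did not make. Of the selectin ligand enzymes (10 tested) and the activation genes (18 tested), which include NF-kB components and cytokine receptors that act upstream of *Sele*, *Icam1* and *Vcam1*, 0 passed in any of the 3 comparisons in voomLmFit, beside the shares of all genes given above.

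The tested gene whose log2 CPM followed each molecule most closely over the 11 libraries was *Tor2a* for *Sele* (Pearson r = 0.923), *Azin2* for *Selp* (0.986), *Wbp1l* for *Icam1* (0.958), *Gtf2h5* for *Icam2* (0.913), *Lepr* for *Vcam1* (0.907), *Nid2* for *Podxl* (0.887), *AU040320* for *Cd44* (0.877) and *Snord53* for *Alcam* (0.968). Each is the highest over all tested genes, across libraries that share pools and differ in depth, and are given as a description. *Nid2*, a basement membrane protein, was 58.7 to 698 CPM, while *Azin2* and *Snord53* had a median of 0 CPM.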

How the data were processed

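The members and gene lists were chosen with earlier results of these data known. Endothelial cells were sorted in small numbers and amplified with a low-input full-length kit. Per its methods, the authors aligned reads to mm10 with Rsubread and assigned them with featureCounts and its built-in NCBI annotation, and the deposited values are raw counts per Entrez gene over exons, with the gene length; strand use is not given in the sources used here. Symbols came from RefSeq GRCm38.p6 (25275 rows) and GENCODE vM21 (18 rows). Predicted genes (1794), unnamed rows (1886) and ribosomal RNA (35) were left out (1.94% to 15.7% of a library's counts). Genes were kept by filterByExpr (minimum count 10, minimum total 15) and scaled by TMM, and 1 voomLmFit model with empirical sample weights (0.43 to 1.96) was fitted to all 11 libraries (edgeR 4.0.16, limma 3.58.1, R 4.3.3), with Benjamini-Hochberg adjustment and a threshold of 0.05. The fit was tested on simulated counts of abundant genes, with the same spread in all libraries and no shared pools. That test does not cover sparse counts or uneven spread between libraries. Its weights follow the modelled variance and so favour deep libraries for abundant genes. CPM and RPKM use TMM-scaled library sizes, and log2 CPM a prior count of 2. Exact two-sided permutation tests of mean log2 CPM enumerated 84, 10 and 28 splits for the 3 comparisons, with smallest p of 0.0119, 0.1 and 0.0357. Group means of log2 values are not fitted values, and the 2 can differ.

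Genes named are the 9 members, listed ligands and partners, up to 6 genes of the lists per direction and comparison by adjusted p, the most alike gene of each member, and the sort markers; *Adipoq*, *Bglap*, *Cxcl12* and *Lepr* are from the stromal marker list. Alternatives were the quasi-likelihood test, DESeq2 1.42.0, limma-trend, no sample weights, other scalings and filters, all rows kept, the mouse pool as a block, summed libraries, 2 groups only and each library left out; a split into 2 library sets by *Krt8* plus *Krt18* at 5 CPM was chosen after seeing the data. The pairing comes from the mouse pools in the labels, since replicate numbers do not link animals. Deviations from the group means correlated by -0.034 to 0.013 between met and non-met libraries of one pool, and by -0.047 to 0.067 between pools.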

Additional observations from a re-analysis of the deposited data

How the results depend on the processing

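Between met and non-met, 0 members were called in every alternative run. Between met and control the count was 0 with the quasi-likelihood test, DESeq2, limma-trend and the term for 2 library sets, 2 with 2 groups only, 3 without sample weights, and 0 to 3 when single libraries were left out; without control 1 the member called was *Vcam1* in place of *Podxl*. Between non-met and control it was 1 with the quasi-likelihood test and within library set 1, 2 without sample weights, and 0 to 2 when single libraries were left out. The pairing of libraries by mouse pool, as a fixed or random replicate block, left the counts at 0 for met minus non-met and, as a random block, at 1 and 0 for the others; it turned the log2 fold change of met minus non-met to -0.56 for *Sele*, -0.36 for *Selp* and -0.67 for *Vcam1* as a fixed block. The sign of met minus non-met also changed for *Sele* with the quasi-likelihood test (-0.044), DESeq2 (-0.20), the library set term (-0.30) and within set 2 (-0.45), for *Vcam1* with the quasi-likelihood test (-0.21) and DESeq2 (-0.41), for *Icam2* within set 2 (-0.12), and for *Cd44* without sample weights (-0.21), with RLE scaling (-0.15), with a mean of at least 5 CPM (-0.053), with summed libraries (-0.52), with 2 groups only (-0.21) and within set 2 (-0.32). When single libraries were left out it ranged from -0.083 to 0.46 for *Sele*, -4.13 to 0.13 for *Icam1*, -0.16 to 1.56 for *Vcam1* and -0.59 to 2.30 for *Cd44*. For met minus control, *Icam2* was 0.00016 with the quasi-likelihood test, -1.46 with the library set term and -0.56 to 0.37 with single libraries left out. For non-met minus control, *Selp* was -0.03 without sample weights, -0.11 with library size scaling, -0.27 with the library set term, -0.27 within set 1 and -0.22 to 0.27 with single libraries left out. *Podxl* was higher and *Vcam1* lower than control in every alternative, by 0.52 to 2.02 and by -4.32 to -1.27. Control 2 counted for little in the fit of abundant genes, with 1 control left out the other is assumed to vary like the remaining groups, 2 controls give the smallest exact p of 0.1 against met, and the sparse counts of *Cd44* and *Alcam* limit what their zeros show; the causes were not tested.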
